A study of Mus musculus with 2 samples.

Results

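Collagens are the main structural proteins of connective tissue. The genes described here are the 44 of 32285 annotated genes in the count tables whose symbol has the form of a collagen chain, Col followed by a number, the letter a and a second number. They were followed across cell classes and between a pair of single-cell RNA libraries from mouse optic nerve. Both libraries came from Nf1-OPG mice, which carry a floxed and a neomycin-cassette (neo) allele of Nf1 together with GFAP-Cre (Nf1flox/neo; GFAP-Cre). In this model of optic glioma the second Nf1 copy is lost in neuroglial progenitors, where the GFAP promoter drives Cre, while fibroblasts and immune cells keep the single working copy. One group was treated with anti-PD-1 (anti-PDCD1 in the labels) and the other with anti-TIGIT, antibodies against inhibitory receptors of T cells. Each group is 1 library, made from the optic nerves of 10 pooled mice aged 12 weeks, and no untreated library was analysed here. With 1 library per group there is no replicate check and no test, so the differences below describe these libraries. All 95% intervals are exact and cover counting error only.

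Each collagen molecule is a triple helix of 3 chains, and the chains are commonly grouped by what the molecules build. Fibrillar collagens form the cable-like fibrils of connective tissue, FACITs (fibril-associated collagens with interrupted triple helices) coat those fibrils, type VI chains form beaded microfilaments, and type IV chains form the sheet of the basement membrane. Type VIII and type X chains form short-chain networks, and a further group is anchored in the plasma membrane. In nerve, fibroblasts of the surrounding meninges are the textbook source of fibrillar collagen, whereas glia are better known for other matrix components. By this grouping the 44 genes comprised 11 fibrillar, 9 FACIT, 6 beaded filament, 6 basement membrane, 4 transmembrane, 3 short-chain network, 2 multiplexin, 1 anchoring fibril and 2 other chains.

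After filtering, 13275 cells remained in the anti-PD-1 library and 7495 in the anti-TIGIT library, and the libraries held 85031565 and 40733655 unique molecular identifiers (UMIs, each standing for 1 captured RNA molecule). Cells were assigned to classes by marker genes that include no collagen, and 28.5% and 28.6% of cells stayed ungated. Fibroblast-gated cells numbered 557 (4.20% of retained cells) and 266 (3.55%), with a median of 5737 and 3647.5 UMIs per cell. All 10 fibroblast markers were detected in them in each library, summing to 12958 and 10260 CPM (UMIs of a gene scaled to 1000000 UMIs of the class). Mgp alone gave 8119 and 5450 CPM of these sums, whereas Dpt was nearly absent, with 4 and 1 UMIs. The 8 mural markers summed to 218 and 158 CPM, nearly all of it Vtn, with 2 and 4 of the 8 at 0. The 8 endothelial markers summed to 69.3 and 87.6 CPM, mostly Cdh5, with Cldn5 and Tie1 at 0 in both libraries. The 5 epithelial markers summed to 119 and 96.2 CPM with none at 0, most of it Cdh1 at 93.3 and 67.8 CPM. All other retained cells had less of these genes: Cdh1 was at 4.72 and 4.11 CPM, Cdh5 at 1.41 and 0.717, and Vtn at 3.07 and 1.35. Whether these UMIs belong to the fibroblast-gated cells themselves or to other cell types was not tested. Any part of other cell types in the collagen values was not tested either. The libraries shared 163 cell barcodes, 11 and 7 of them on fibroblast-gated cells of the anti-PD-1 and anti-TIGIT libraries. Dura, the outer meninx, is named in the protocol next to the nerves, and how far it entered these libraries is not given in the sources used here.

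The promoter windows below are shown for 7 collagen genes on which the results turn: Col1a2, Col6a1 and Col6a2, the main fibroblast chains; Col4a1 and Col4a2, which share a promoter region; Col16a1, led by precursor glia; and Col25a1, a membrane collagen whose level differed between the libraries. Each runs from 250 bases before to 50 bases after the listed start, taken from RefSeq on build GRCm38.p6, 5′ to 3′ on the gene's own strand. Capitals mark matches, on either strand, to TATAAA (the TATA box), CCAAT (bound by NF-Y), GGGCGG (the GC box bound by Sp1) or ACAAAG (a core of Sox-factor sites).
Col1a2: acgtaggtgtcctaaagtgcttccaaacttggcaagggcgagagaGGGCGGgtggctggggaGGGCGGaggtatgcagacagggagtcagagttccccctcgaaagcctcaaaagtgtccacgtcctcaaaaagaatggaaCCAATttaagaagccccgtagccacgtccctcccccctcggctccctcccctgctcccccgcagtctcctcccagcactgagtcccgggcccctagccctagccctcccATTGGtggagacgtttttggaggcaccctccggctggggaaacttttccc
Col6a1: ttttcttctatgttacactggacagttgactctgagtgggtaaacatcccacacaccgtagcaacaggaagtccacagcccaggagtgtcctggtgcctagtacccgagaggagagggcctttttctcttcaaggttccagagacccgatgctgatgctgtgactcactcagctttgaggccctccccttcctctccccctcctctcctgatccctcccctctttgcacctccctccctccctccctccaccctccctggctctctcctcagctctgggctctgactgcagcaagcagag
Col6a2: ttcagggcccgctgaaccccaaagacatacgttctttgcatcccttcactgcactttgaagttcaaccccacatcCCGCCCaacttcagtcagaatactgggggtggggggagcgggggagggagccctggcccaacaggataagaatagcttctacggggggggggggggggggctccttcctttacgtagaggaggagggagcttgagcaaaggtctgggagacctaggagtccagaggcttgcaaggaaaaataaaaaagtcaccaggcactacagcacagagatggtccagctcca
Col4a1: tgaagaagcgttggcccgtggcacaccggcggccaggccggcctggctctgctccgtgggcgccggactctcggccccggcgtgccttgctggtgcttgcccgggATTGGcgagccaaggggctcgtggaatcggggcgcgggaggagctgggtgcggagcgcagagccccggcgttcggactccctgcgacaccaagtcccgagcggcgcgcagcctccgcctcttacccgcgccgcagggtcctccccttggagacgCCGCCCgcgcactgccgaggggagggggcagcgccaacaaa
Col4a2: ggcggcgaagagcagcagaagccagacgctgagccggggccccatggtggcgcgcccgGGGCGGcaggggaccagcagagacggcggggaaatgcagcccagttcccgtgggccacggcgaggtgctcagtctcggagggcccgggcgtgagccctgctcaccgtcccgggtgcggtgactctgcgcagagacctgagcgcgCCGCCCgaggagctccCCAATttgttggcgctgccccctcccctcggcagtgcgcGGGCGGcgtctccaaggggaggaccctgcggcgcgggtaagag
Col16a1: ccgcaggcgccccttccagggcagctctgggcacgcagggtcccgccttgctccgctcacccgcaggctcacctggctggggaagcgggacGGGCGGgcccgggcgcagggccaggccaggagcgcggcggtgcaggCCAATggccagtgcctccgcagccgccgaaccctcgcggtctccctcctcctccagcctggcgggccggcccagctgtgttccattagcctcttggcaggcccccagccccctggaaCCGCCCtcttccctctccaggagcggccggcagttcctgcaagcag
Col25a1: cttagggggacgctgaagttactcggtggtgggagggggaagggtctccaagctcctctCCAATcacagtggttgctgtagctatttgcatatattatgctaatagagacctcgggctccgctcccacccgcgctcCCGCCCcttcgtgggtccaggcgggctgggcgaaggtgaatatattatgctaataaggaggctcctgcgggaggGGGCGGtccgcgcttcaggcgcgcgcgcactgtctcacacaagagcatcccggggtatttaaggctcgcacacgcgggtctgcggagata
The window of Col1a2 lies at chr6:4505368-4505667 on the plus strand, Col6a1 at chr10:76725995-76726294 and Col6a2 at chr10:76623581-76623880 on the minus strand. Col4a1 lies at chr8:11312777-11313076 on the minus strand and Col4a2 at chr8:11312555-11312854 on the plus strand. Col16a1 lies at chr4:130047590-130047889 and Col25a1 at chr3:130180595-130180894, both on the plus strand.

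Windows were listed for 35 of the 44 genes, 3 of them with 2 windows. GGGCGG was present in 23 of the 38 collagen windows (60.5%) and in 35.7% of all 32851 windows of the same length. CCAAT was present in 13 of 38 (34.2%, against 37.4% of all), TATAAA in 5 (13.2%, against 13.6%) and ACAAAG in 5 (13.2%, against 18.7%). Col1a2 had 2 CCAAT and 2 GGGCGG matches, whereas Col6a1, its companion in fibroblasts, had none of the 4 motifs in its window. Col4a1 and Col4a2 start 21 bases apart on opposite strands, and each runs across the listed start of the other. Of the windows above, 78 bases are the same DNA read on opposite strands. No window was listed for Col1a1, Col2a1, Col4a3, Col5a2, Col9a3, Col12a1, Col14a1, Col22a1 or Col26a1.

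Among the 9 classes of at least 50 cells in each library, fibroblast-gated cells had the highest collagen level in both libraries. The 44 genes together reached 3364 CPM (95% interval 3304 to 3425) in fibroblasts of the anti-PD-1 library and 2854 CPM (2758 to 2953) in those of the anti-TIGIT library, which is 0.336% and 0.285% of all UMIs of these cells. Fibroblasts thereby held 64.0% (63.3 to 64.7) and 53.0% (51.8 to 54.3) of the collagen UMIs of all gated cells. These shares leave out the ungated cells, which had 2033 and 1160 collagen UMIs (121 and 130 CPM). Oligodendrocyte precursor cells (OPCs), the dividing progenitors of the oligodendrocyte lineage, came next among classes of at least 50 cells, with 596 and 446 CPM. Oligodendrocytes, the myelinating glia, had 140 and 129 CPM, and microglia, the resident macrophages of nervous tissue, had 74.2 and 138 CPM. The immune classes lay lowest: border macrophages had 36.3 and 37.5 CPM, dendritic cells 18.5 and 29.6, T and NK cells 18.9 and 14.6, B cells 19.0 and 9.88, and plasma cells 7.01 and 5.51. Smaller classes also held collagen: 30 and 16 astrocyte-gated cells had 1368 CPM (1204 to 1548) and 5029 CPM (4527 to 5571), the latter above fibroblasts, and 14 endothelial-gated cells of the anti-PD-1 library had 827 CPM (569 to 1161). The log2 ratio of fibroblasts over all other gated cells was 4.89 (4.84 to 4.93) and 4.80 (4.73 to 4.87).

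Collagen was also widespread among single fibroblasts. With each cell thinned to 1000 UMIs, 91.8% of 524 and 86.5% of 245 fibroblasts had a collagen UMI, as had 38.3% and 29.6% of OPCs, 11.8% and 10.3% of oligodendrocytes and 7.88% and 10.6% of microglia. T and NK cells, which are not known as a source of collagen, served for comparison, with 1.89% and 1.17% at that depth. The part of free RNA in their UMIs was not tested. Without thinning the shares were 97.3% and 94.0% of fibroblasts, at median depths of 5737 and 3647.5 UMIs, and 5.52% and 4.37% of T and NK cells, at 3428 and 2829 UMIs. The thinning left out 33 and 21 shallower fibroblasts and 45 and 17 shallower T and NK cells.

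**Figure D1:**
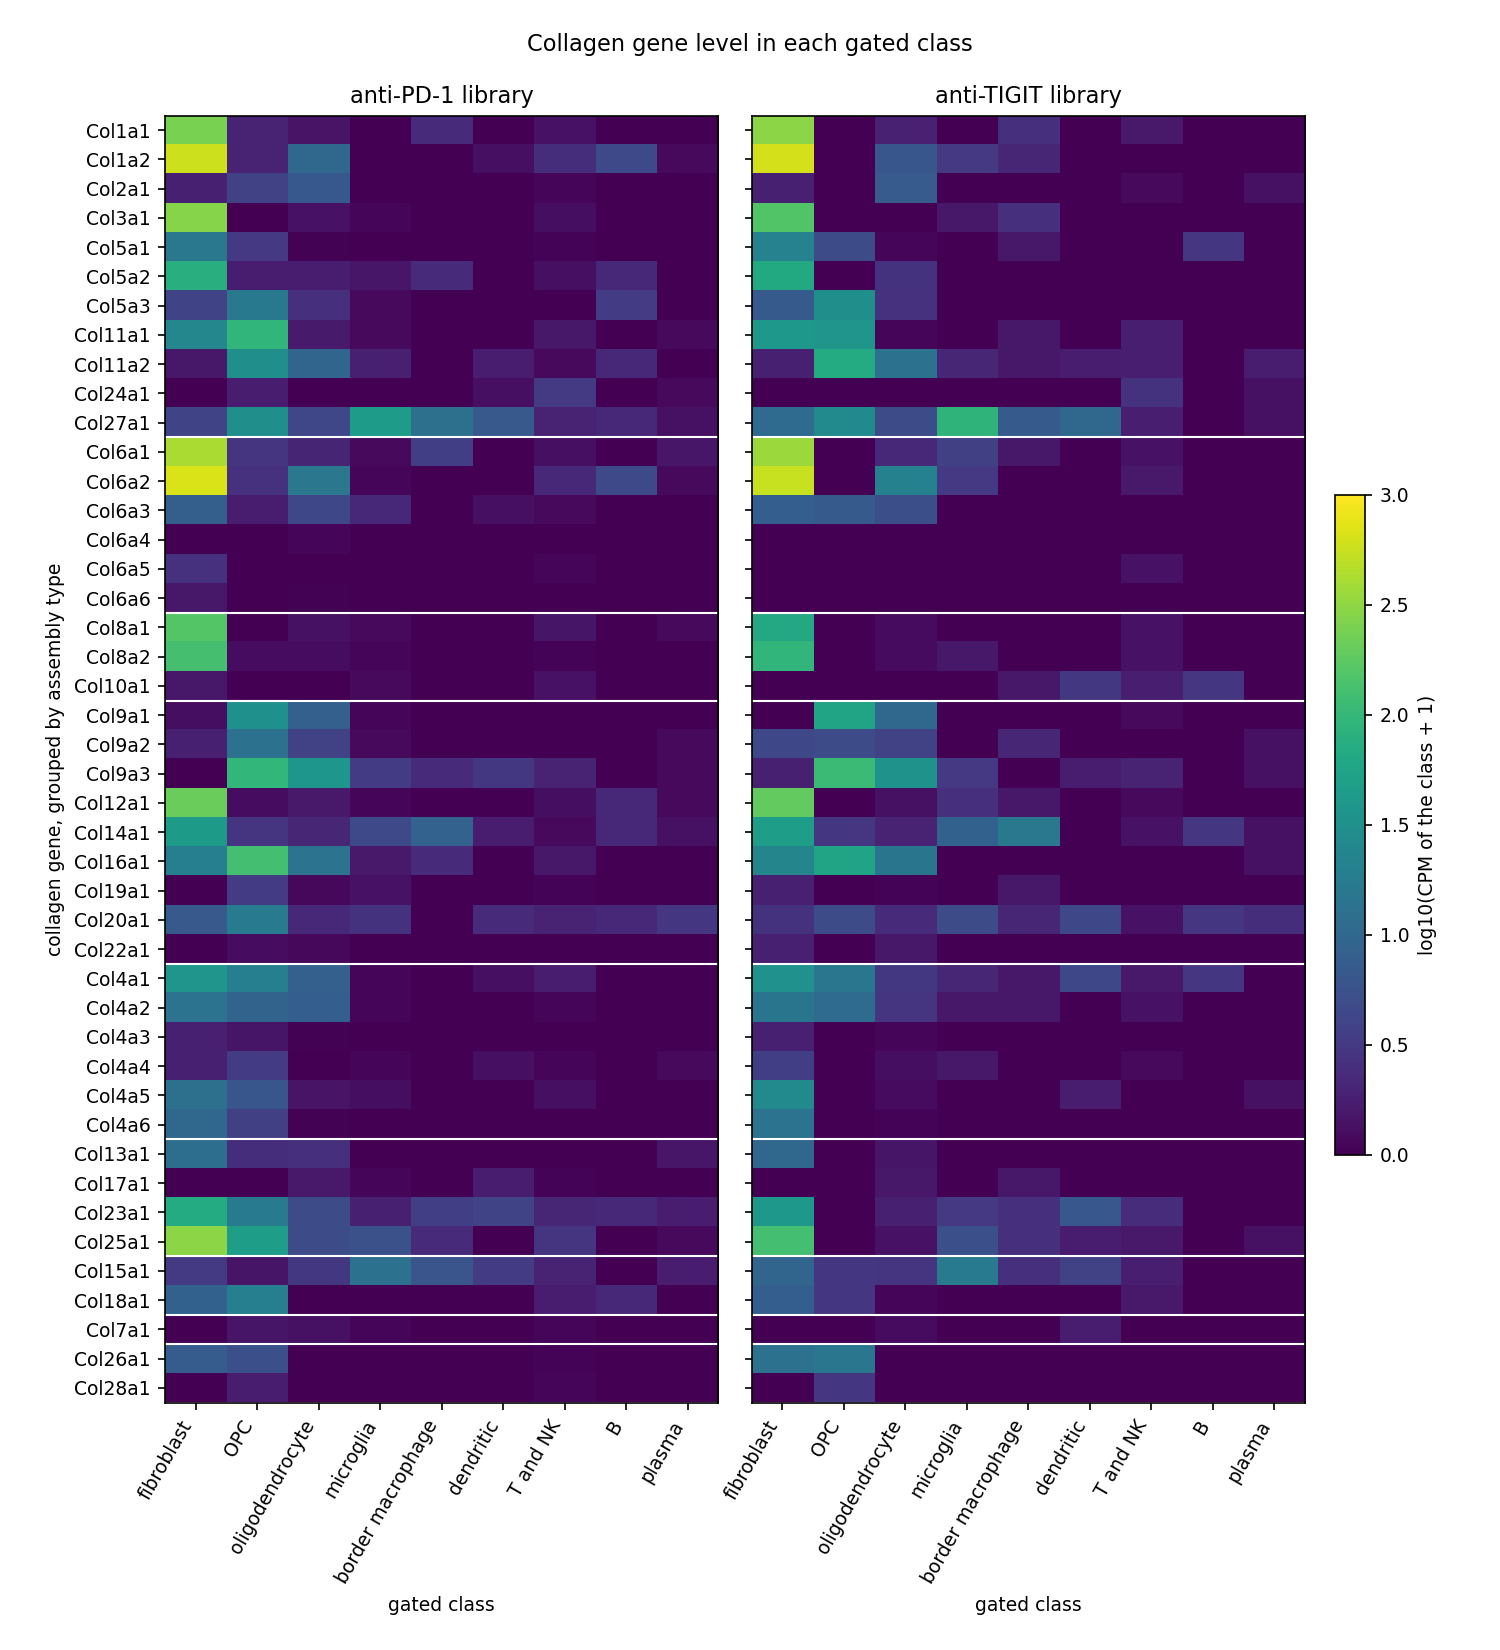
Level of each of the 44 collagen genes, as log10(CPM + 1), in the 9 gated classes of at least 50 cells per library, with one panel per library and white lines between assembly types. The bright column at the left of each panel is the fibroblast class, and separate blocks of FACIT and type XI chains stand in the OPC column.

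Most collagen genes with enough UMIs were highest in fibroblasts or OPCs. At least 20 UMIs in one class were reached by 33 genes in the anti-PD-1 library and 27 in the anti-TIGIT library, and among the 9 classes compared the highest was fibroblasts for 20 and 18 of them. Over all genes with as many UMIs, 16.2% and 15.7% were highest in fibroblasts. Of the 27 collagen genes that reached the minimum in both libraries, 26 had the same highest class in each: fibroblasts for 17 (11.7% of all genes), OPCs for 6 (18.6%), microglia for 2 (4.68%) and oligodendrocytes for 1 (14.3%). Col11a1 was the exception, highest in OPCs under anti-PD-1, whereas under anti-TIGIT fibroblasts (38.6 CPM, 28.2 to 51.7) and OPCs (36.2 CPM, 21.4 to 57.2) did not differ beyond counting error. The minimum could be met in any class, so some of the 26 rest on few UMIs in the leading class. Under anti-TIGIT, Col9a2 led in OPCs with 2 UMIs (4.02 CPM), against 41 UMIs (2.87 CPM) in oligodendrocytes, within counting error. Col6a3 led in fibroblasts there with 8 UMIs (6.87 CPM), against 3 UMIs (6.03 CPM) in OPCs. In the smaller classes left out of this ranking, Col25a1, Col23a1 and Col4a1 reached higher levels than in fibroblasts. Col25a1 had 550 and 3302 CPM and Col23a1 343 and 1192 CPM in astrocyte-gated cells, and Col4a1 had 526 CPM in endothelial-gated cells of the anti-PD-1 library. On log2(CPM + 5), 15 of 24 collagen genes with at least 50 UMIs in each library were at least 2-fold higher in fibroblasts than in all other gated cells in both libraries, as were 9.37% of all genes. Col9a3 alone was at least 2-fold lower in both, as were 14.7% of all genes, and 8 collagen genes were neither.

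Of the fibrillar chains, those of type I, the most common collagen of connective tissue, and type III, its companion in soft tissue, gave most UMIs in fibroblasts. Col1a2 had 2087 UMIs (590 CPM, 565 to 616) in the anti-PD-1 library and 737 UMIs (633 CPM, 588 to 680) in the anti-TIGIT library, a log2 ratio of -0.10 (-0.22 to 0.02). Col1a1 had 878 and 347 UMIs (248 and 298 CPM), a log2 ratio of -0.26 (-0.44 to -0.08). Col1a2 was thus level within counting error, and Col1a1 was slightly lower under anti-PD-1, except in cells with Y-linked transcripts, where its log2 ratio was 0.024 (-0.33 to 0.39). Col3a1 differed more, with 1004 and 175 UMIs (284 and 150 CPM) and a log2 ratio of 0.92 (0.68 to 1.16). Col5a2, a type V chain that nucleates fibrils, had 76.9 and 66.1 CPM, and its partner Col5a1 had 14.7 and 20.6 CPM. These levels are UMIs from the 5′ end of transcripts and were not divided by gene length.

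The type I and III genes gave few UMIs elsewhere among gated cells. Fibroblasts held 98.7% and 97.8% of the Col3a1 UMIs of gated cells, 97.6% and 94.0% of those of Col1a1, and 90.5% and 89.8% of those of Col1a2. Col3a1 had 13 and 4 UMIs in all other gated cells, giving fibroblast-over-other log2 ratios of 10.33 and 10.08. Across single cells at 1000 UMIs, Col1a2 was seen in 42.0% and 40.8% of fibroblasts, against 4 of 3233 and 0 of 1448 T and NK cells, the latter with an exact upper bound of 0.254%.

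The beaded filament chains of type VI, which link fibrils to cell surfaces and basement membranes, came after the fibrillar group, at 32.5% and 32.0% of fibroblast collagen UMIs against 37.0% and 42.9%. Col6a2 had 2358 UMIs (667 CPM, 640 to 694) and 644 UMIs (553 CPM, 511 to 597), a log2 ratio of 0.27 (0.14 to 0.40). Col6a1 had 1482 and 413 UMIs (419 and 355 CPM), a log2 ratio of 0.24 (0.08 to 0.40). Both chains were modestly higher in the anti-PD-1 library and by nearly the same factor. Without the Pi16-marked cells described below, an alternative chosen after seeing the data, the libraries lay closer. Col6a2 was then at 569 and 532 CPM and Col6a1 at 367 and 346 CPM. Col6a3, the third chain of the classical type VI molecule, had only 25 and 8 UMIs in fibroblasts (7.07 and 6.87 CPM), although 60.7% and 84.5% of its gated UMIs lay in oligodendrocytes at 3.41 and 4.20 CPM. The type VI chains Col6a4, Col6a5 and Col6a6 had 0, 6 and 2 UMIs in fibroblasts of the anti-PD-1 library and none in those of the anti-TIGIT library.

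The short-chain network genes of type VIII, best known from the basement membrane of the corneal and vascular endothelium, were both fibroblast genes here. Col8a1 had 553 and 75 UMIs (156 and 64.4 CPM), a log2 ratio of 1.28 (0.93 to 1.65). Col8a2 had 462 and 110 UMIs (131 and 94.5 CPM), a log2 ratio of 0.47 (0.16 to 0.78). In fibroblasts of the anti-PD-1 library Col8a1 was therefore above Col8a2, and in those of the anti-TIGIT library below it. Col10a1, the type X chain of growth-plate cartilage, had 2 and 0 UMIs in fibroblasts.

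Among FACITs, fibroblasts carried Col12a1 and Col14a1, the types found on type I fibrils of dense connective tissue. Col12a1 had 718 and 222 UMIs (203 and 191 CPM), a log2 ratio of 0.09 (-0.13 to 0.31), and 97.0% and 95.3% of its gated UMIs lay in fibroblasts. Col14a1 had 42.4 and 47.2 CPM. Neither FACIT differed between the libraries by more than its counting error. Col9a1, Col9a2 and Col9a3, the chains of the cartilage-type FACIT IX, had 1, 3 and 0 UMIs in fibroblasts of the anti-PD-1 library and 0, 4 and 1 in those of the anti-TIGIT library.

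Basement membrane chains were low in fibroblasts, together 71.2 and 88.5 CPM. Col4a1 and Col4a2, the chains of the common type IV sheet, had 35.6 and 31.8 CPM and 12.7 and 13.7 CPM. Col4a5 had 42 and 31 UMIs (11.9 and 26.6 CPM), a log2 ratio of -1.17 (-1.87 to -0.45), and its neighbour on chromosome X, Col4a6, had 9.33 and 12.9 CPM. Col4a3 and Col4a4, chains of the kidney and inner-ear sheet, had at most 3 UMIs in fibroblasts of either library.

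Transmembrane collagens were the group that differed most between the libraries in fibroblasts, at 379 CPM (359 to 400) against 173 CPM (150 to 198). Col25a1, a neuronal membrane collagen first found in amyloid plaques, had 1056 UMIs (298 CPM, 281 to 317) in the anti-PD-1 library and 145 UMIs (125 CPM, 105 to 147) in the anti-TIGIT library, a log2 ratio of 1.26 (1.01 to 1.52). Fibroblasts held 70.0% and 34.4% of its UMIs in gated cells, and ungated cells had a further 548 and 474 UMIs. Col23a1 had 245 and 45 UMIs (69.3 and 38.6 CPM), a log2 ratio of 0.84 (0.38 to 1.33). Col13a1, found at neuromuscular and other cell-matrix junctions, had 11.0 and 9.45 CPM, and Col17a1, of the epidermal hemidesmosome, had no UMI in fibroblasts. At 1000 UMIs, Col25a1 was seen in 18.9% (15.6 to 22.5) and 7.35% (4.41 to 11.4) of fibroblasts, against 2 of 3233 and 3 of 1448 T and NK cells.

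**Figure D2:**
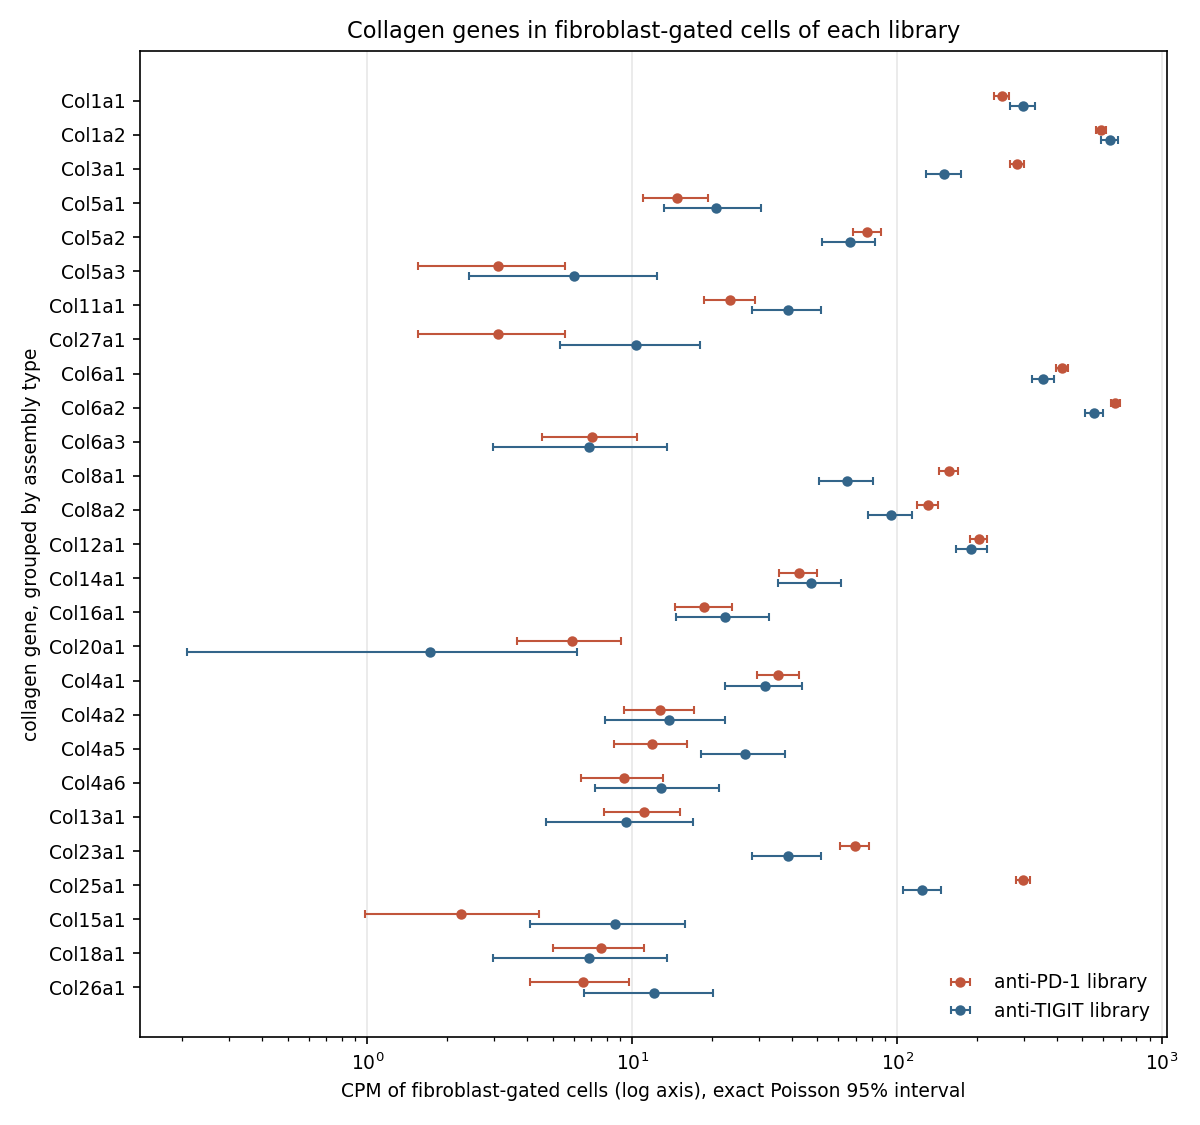
Level in CPM (log axis) of the 27 collagen genes with 10 or more UMIs over both libraries in fibroblast-gated cells, with exact Poisson 95% intervals, for the anti-PD-1 and anti-TIGIT libraries. The points lie close together for Col1a2 and Col12a1 and apart for Col25a1 (298 and 125 CPM), Col8a1 (156 and 64.4 CPM) and Col3a1 (284 and 150 CPM).

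At least 2% of fibroblast collagen UMIs in one of the libraries came from each of 11 genes, which together gave 93.4% and 90.0%. These were Col1a1, Col1a2, Col3a1, Col5a2, Col6a1, Col6a2, Col8a1, Col8a2, Col12a1, Col23a1 and Col25a1. The 44-gene sum in fibroblasts was higher in the anti-PD-1 library, with a log2 ratio of 0.24 (0.18 to 0.29). On log2(CPM + 5), 2 of 19 collagen genes with at least 50 UMIs lay 2-fold or more above their anti-TIGIT level under anti-PD-1, Col25a1 and Col8a1, and 0 lay 2-fold or more below it. Over all 8818 genes tested, 1.44% were higher and 0.635% lower by that rule, with a median log2 ratio of -0.04 against 0.14 over the 19 collagen genes. The sum ratio was 0.051 (-0.011 to 0.11) without the Pi16-marked cells described below, an alternative chosen after seeing the data, and 0.050 in cells with Xist and 0.35 in cells with Y-linked transcripts. For single genes the cell sex split also mattered: Col25a1 had 1.90 (1.47 to 2.36) in Xist cells and 0.37 (-0.05 to 0.80) in Y cells, Col8a1 0.71 and 2.14, and Col3a1 0.27 and 1.64. These cells numbered 212 and 81 with Xist and 132 and 55 with Y-linked transcripts, and which mice they came from is not given. Col25a1 also moved with the choice of cells, to 0.83 by clusters and to 1.77 at 500 genes and 5% mitochondrial UMIs.

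Fibroblasts were not uniform in their collagens. Cells with at least 2 of the markers Pi16, Dpp4, Cd248, Sema3c and Cd34, genes of adventitial fibroblasts, numbered 71 (12.7%) and 20 (7.52%), and their median depth was higher, 9426 and 6691 UMIs against 5293 and 3413. Col3a1 was at 742 CPM in them and 163 CPM in other fibroblasts of the anti-PD-1 library, a log2 ratio of 2.19 (2.01 to 2.37). In the anti-TIGIT library Col3a1 was at 285 against 130 CPM, a log2 ratio of 1.13 (0.61 to 1.64). Col5a2 and Col1a1 were also higher in these cells, with log2 ratios of 1.32 and 1.10 and of 1.14 and 0.80. Col8a1 had 1.5 (1.25 to 1.74) and 0.82 (-0.072 to 1.64), and Col14a1 had 1.5 (1.01 to 1.98) and 0.87 (-0.19 to 1.81). Col1a2 was higher in the anti-PD-1 library only, at 0.70 against -0.067, and Col8a2 had 0.30 and -0.97. Col6a2, at 0.87 (0.74 to 0.99) and 0.38 (0.07 to 0.68), and Col25a1, at 0.53 (0.33 to 0.72) and 0.77 (0.14 to 1.36), were higher in both libraries. The FACIT Col12a1 had 0.55 and -0.15. Genes with intervals above 0 in both libraries thus included fibrillar, beaded filament and transmembrane members. For the FACIT Col14a1 and the short-chain Col8a1 this held in the anti-PD-1 library only. The 44-gene sum was higher by 0.92 and 0.39. Without these cells the anti-PD-1 over anti-TIGIT log2 ratio of Col3a1 was 0.33 (0.05 to 0.62) instead of 0.92, whereas that of Col25a1 was 1.26 with and without them.

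Cells with at least 2 of the markers Dkk2, Foxc2, Alpl and Fxyd5 made up 76.1% (424 cells) and 71.1% (189 cells) of fibroblasts, at a median depth of 6667 and 4402 UMIs against 2402 and 1860 in the rest. Col25a1 lay mostly in these cells, at 325 CPM against 101 CPM in the anti-PD-1 library and 144 against 16.8 CPM in the anti-TIGIT library. Its log2 ratios were 1.68 (1.23 to 2.16) and 3.10 (1.52 to 5.39). Col8a2 went the same way, with 1.48 and 1.20, and Col6a2 with 0.85 and 0.81. Col4a5 and Col13a1 were found mostly outside this set. Col4a5 was at 3.52 against 74.8 CPM in the anti-PD-1 library and 11.2 against 112 CPM in the anti-TIGIT library, log2 ratios of -4.41 and -3.33. Col13a1 had 10 UMIs inside and 29 outside in the anti-PD-1 library, a log2 ratio of -4.45, and 0 inside and 11 outside in the anti-TIGIT library. Col1a1 was lower inside the set, by log2 ratios of -0.34 and -0.93. Cells with at least 2 of Slc6a13, Slc22a6, Aldh1a2, Crabp2 and Slc13a3 numbered 27 and 9, and in the anti-PD-1 library Col13a1 was higher in them (2.43) and Col8a2 lower (-2.40). Since the sets were cut at 2 detected markers, deeper cells entered them more easily, and the part of depth in these ratios was not tested.

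**Figure D3:**
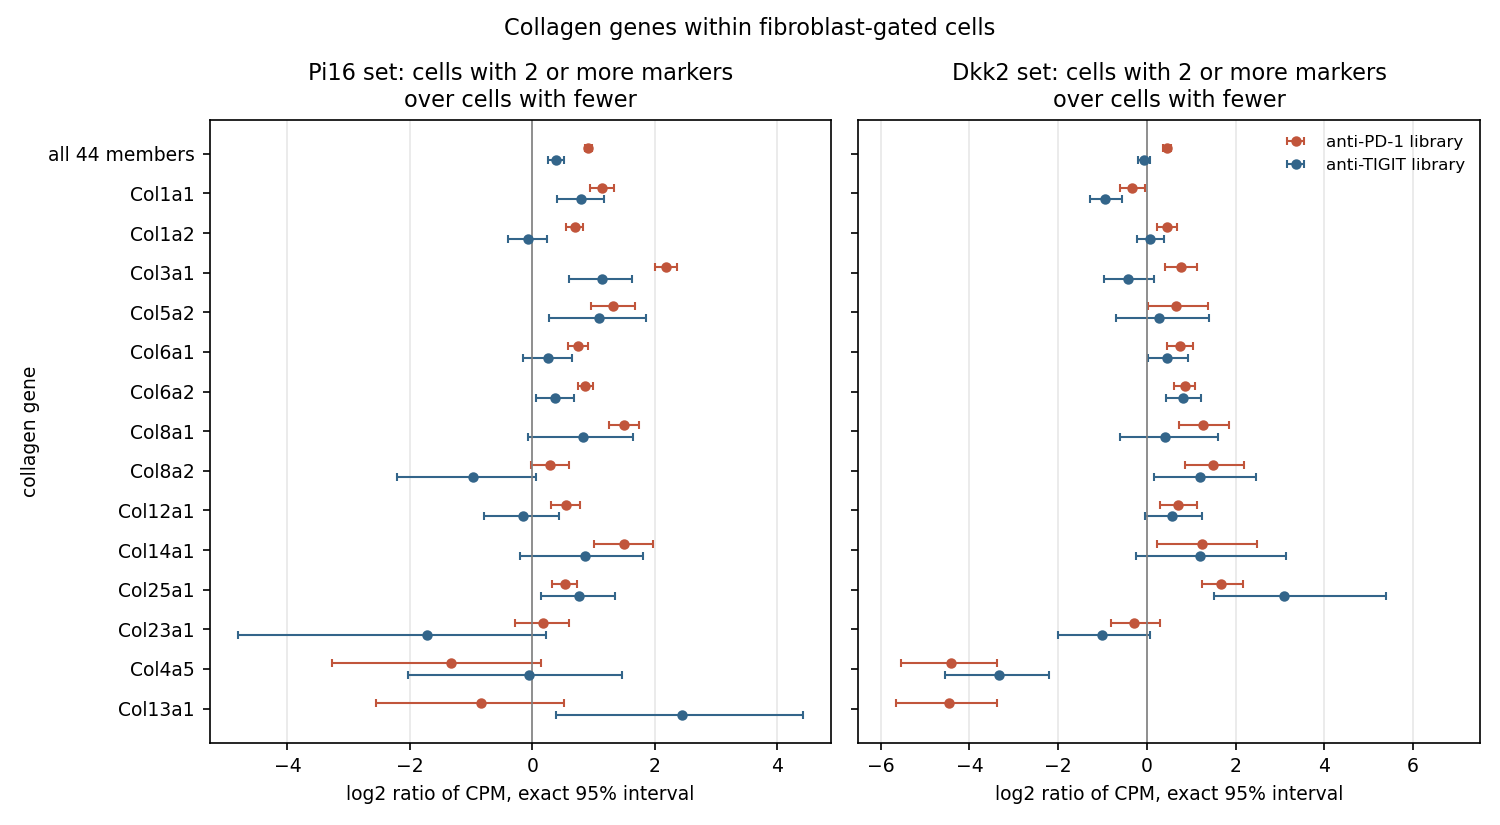
Log2 ratio of CPM, with exact 95% intervals, between fibroblast-gated cells with 2 or more markers of the Pi16 set (left) or the Dkk2 set (right) and those with fewer, for 14 collagen genes and the sum of all 44 in each library. Col3a1, Col5a2 and Col1a1 lie to the right of 0 in the Pi16 panel in both libraries, and Col4a5 far to the left in the Dkk2 panel, where Col13a1 of the anti-TIGIT library, with 0 UMIs in the set, is not drawn.

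OPCs carried a different set of collagens, led by FACIT and type XI chains. Col16a1, a FACIT of small fibrils, had 518 UMIs (126 CPM) in 300 of 676 OPCs of the anti-PD-1 library and 28 UMIs (56.3 CPM) in 23 of 110 OPCs of the anti-TIGIT library. Col9a3 had 95.1 and 108 CPM, although 46.3% of its 54 UMIs in the anti-TIGIT library came from 3 cells, and its partner Col9a1 had 31.1 and 56.3 CPM. Col11a1, a chain that sets the diameter of cartilage fibrils, had 388 UMIs (94.1 CPM) in 214 OPCs and 18 UMIs (36.2 CPM) in 16 OPCs. These genes were spread over many precursor cells rather than a few in the anti-PD-1 library, where the 10 richest cells held 9.65% of Col16a1 UMIs and 17.5% of Col11a1 UMIs. Col11a2, the partner chain of Col11a1, had 30.6 and 68.3 CPM, and Col5a3, a rarer chain of type V, had 15.5 and 30.1 CPM. Col9a2 had 12.1 and 4.02 CPM, and Col27a1, a fibrillar chain of cartilage, had 30.1 and 26.1 CPM. Col18a1, the multiplexin from which endostatin is cut, had 77 UMIs (18.7 CPM) and 1 UMI, and Col20a1 had 68 and 2 UMIs (16.5 and 4.02 CPM).

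Most of these chains were lower in mature oligodendrocytes than in their precursors. The log2 ratio of OPCs over oligodendrocytes was 7.17 (6.38 to 8.09) and 8.01 (5.95 to 11.17) for Col11a1, where oligodendrocytes had 13 and 2 UMIs. For Col5a3 it was 3.32 and 4.17, for Col16a1 3.27 and 2.02, and for Col27a1 3.16 and 2.76. For Col9a1 it was 2.10 and 2.58, for Col11a2 1.82 and 2.50, and for Col9a3 1.39 and 1.71. Col6a2 and Col1a2 went the other way, at 14.4 CPM in oligodendrocytes against 1.70 in OPCs for Col6a2 of the anti-PD-1 library and 9.24 against 0.97 for Col1a2. In the anti-TIGIT library both were at 0 UMIs in OPCs, where 3 UMIs would be 6.03 CPM. Oligodendrocytes there had 19.7 CPM of Col6a2 and 5.39 CPM of Col1a2, so that library does not show the difference for Col1a2. Col9a3 was the leading collagen of oligodendrocytes, at 36.2 and 33.2 CPM in 554 of 2632 and 394 of 2000 cells. Part of its gene body overlaps Tcfl5, and whether strand was used in counting is not given in the sources used here. Col2a1, the main chain of cartilage fibrils, was highest in oligodendrocytes in both libraries, with 113 and 89 UMIs (5.67 and 6.23 CPM) in 100 and 79 cells. In the anti-TIGIT library OPCs had 0 Col2a1 UMIs, with an upper bound of 0.28 on the log2 ratio of OPCs over oligodendrocytes. That library therefore does not show the ranking of Col2a1 over OPCs.

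Between the libraries, 6 of 13 collagen genes with at least 50 UMIs in OPCs lay 2-fold or more higher under anti-PD-1 on log2(CPM + 5) and 1 lay lower, against 3.87% and 2.85% of all genes tested there, whose median log2 ratio was -0.11 against 0.93 over the 13. Col11a1 had a log2 ratio of 1.38 (0.70 to 2.15) and Col16a1 1.16 (0.61 to 1.76). Col18a1, from 77 against 1 UMIs, had 3.22 (0.70 to 8.54), and Col20a1, from 68 against 2, had 2.04 (0.13 to 5.11). The other genes past 2-fold were Col25a1, from 192 against 0 UMIs, and Col23a1, from 68 against 0. Each of the 13 genes reached the minimum by its anti-PD-1 UMIs alone. This includes Col11a1 and Col16a1, with 388 and 518 UMIs there against 18 and 28 under anti-TIGIT. That minimum counted both libraries together, and OPCs had 4121974 UMIs under anti-PD-1 and 497738 under anti-TIGIT. The count and median above therefore cannot show a shift of collagens in OPCs. The gene that was lower was Col11a2, at -1.16 (-1.72 to -0.57). The other chains led by OPCs in both libraries lay between, with Col9a1 at -0.86 (-1.46 to -0.21), Col5a3 at -0.96 (-1.78 to -0.039), Col9a3 at -0.19 (-0.60 to 0.25) and Col9a2, from 50 against 2 UMIs, at 1.59 (-0.33 to 4.68). The type XI chains Col11a1 and Col11a2 thus differed in opposite directions. With 222 collagen UMIs in 110 OPCs of the anti-TIGIT library, the wide intervals are set by that library. In oligodendrocytes, 0 of 16 collagen genes passed 2-fold in either direction, against 2.69% and 0.307% of all genes. Without the 5 CPM added, Col25a1 had a log2 ratio of 3.18 (2.0 to 4.68) there, from 76 against 6 UMIs, with 72.4% of the 76 in 3 cells. Col23a1 had 2.20 (1.32 to 3.22), from 77 against 12 UMIs. Col4a1 and Col4a2 had 1.81 (1.24 to 2.43) and 1.89 (1.28 to 2.54), from 7.38 and 2.10 CPM and from 6.98 and 1.89 CPM.

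**Figure D4:**
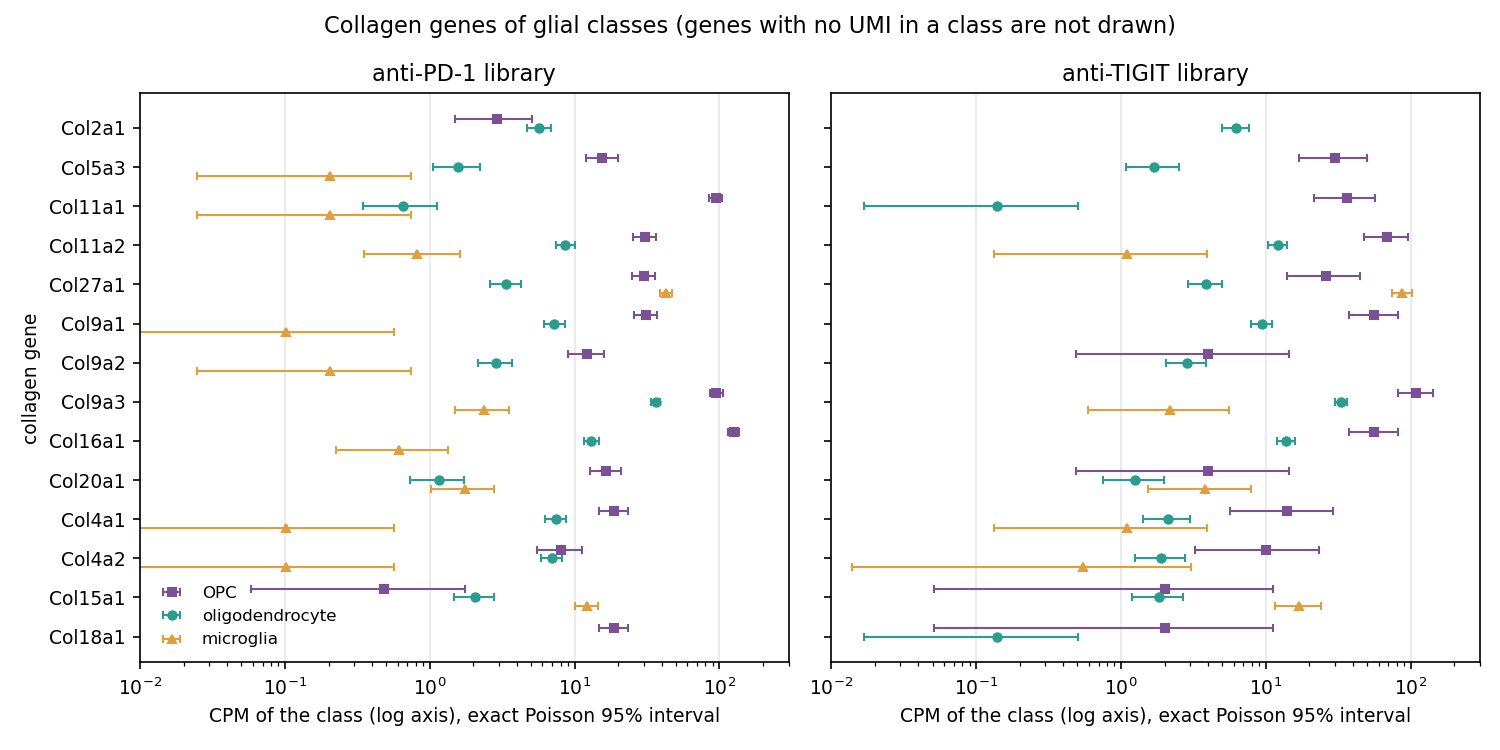
Level in CPM (log axis), with exact Poisson 95% intervals, of 14 collagen genes in OPCs, oligodendrocytes and microglia, with one panel per library; a gene with no UMI in a class is not drawn. OPCs lie to the right of oligodendrocytes for Col11a1, Col16a1, Col9a1 and Col9a3 in both panels, and microglia are the rightmost class for Col27a1 and Col15a1.

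Col25a1 and Col23a1 in OPCs came from a handful of cells. All 192 Col25a1 UMIs of the anti-PD-1 OPCs lay in 7 of 676 cells, with 47 in one cell and 58.3% in the richest 3, and the anti-TIGIT OPCs had none. The 68 Col23a1 UMIs lay in 9 cells, and the anti-TIGIT OPCs again had none. Against 3 UMIs in the anti-TIGIT OPCs, the log2 ratios would be at least 2.95 for Col25a1 and at least 1.45 for Col23a1, and both rest on these few cells. Of the 6 OPCs with at least 5 Col25a1 UMIs, 6 also had Col23a1. The same pairing was seen in ungated cells, where 16 of 23 and 15 of 16 cells with at least 5 Col25a1 UMIs had Col23a1. In fibroblasts it was less frequent, at 31 of 82 and 1 of 10 such cells.

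Some oligodendrocytes had UMIs of Col6a2 or Col1a2 without the chains that accompany them in fibroblasts. Col6a2 had 286 and 282 UMIs (14.4 and 19.7 CPM) in 84 of 2632 and 73 of 2000 oligodendrocytes, and the 10 richest cells held 43.4% and 41.5% of them. Col6a1 was at 0.0734 UMIs per Col6a2 UMI in oligodendrocytes (0.0448 to 0.114) and 0.0603 (0.0346 to 0.0983), against 0.628 (0.589 to 0.671) and 0.641 (0.565 to 0.727) in fibroblasts. The ratios of the classes differed beyond counting error. Col1a2 had 184 and 77 UMIs in 110 and 53 oligodendrocytes. Col1a1 per Col1a2 was 0.0489 (0.0220 to 0.0949) and 0.169 (0.0860 to 0.306) in oligodendrocytes against 0.421 (0.388 to 0.455) and 0.471 (0.413 to 0.536) in fibroblasts. Dcn, a fibroblast proteoglycan, was at 0.0217 and 0.0260 UMIs per Col1a2 UMI in oligodendrocytes against 1.37 and 1.88 in fibroblasts. Mgp, an abundant fibroblast gene, had 495 and 88 UMIs in oligodendrocytes, at 2.69 and 1.14 per Col1a2 UMI against 13.8 and 8.61 in fibroblasts. The part of free RNA and of doublets in these oligodendrocyte UMIs was not tested. Col6a2 and Col1a2 were together in only 16 and 7 cells. Of the 31 and 34 oligodendrocytes with at least 3 Col6a2 UMIs, 1 and 1 had a Dcn UMI.

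The head-to-head pair Col4a1 and Col4a2 also changed its balance between classes. Col4a2 was at 0.357 UMIs per Col4a1 UMI (0.248 to 0.506) and 0.432 (0.225 to 0.797) in fibroblasts, and at 0.946 (0.744 to 1.20) and 0.900 (0.515 to 1.57) in oligodendrocytes. The intervals of the classes did not overlap in the anti-PD-1 library and overlapped in the anti-TIGIT library. The annotated genes overlap by 85 bases at their starts, which is where 5′ reads fall, so the UMIs of one could be counted for the other if strand was not used.

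**Figure D5:**
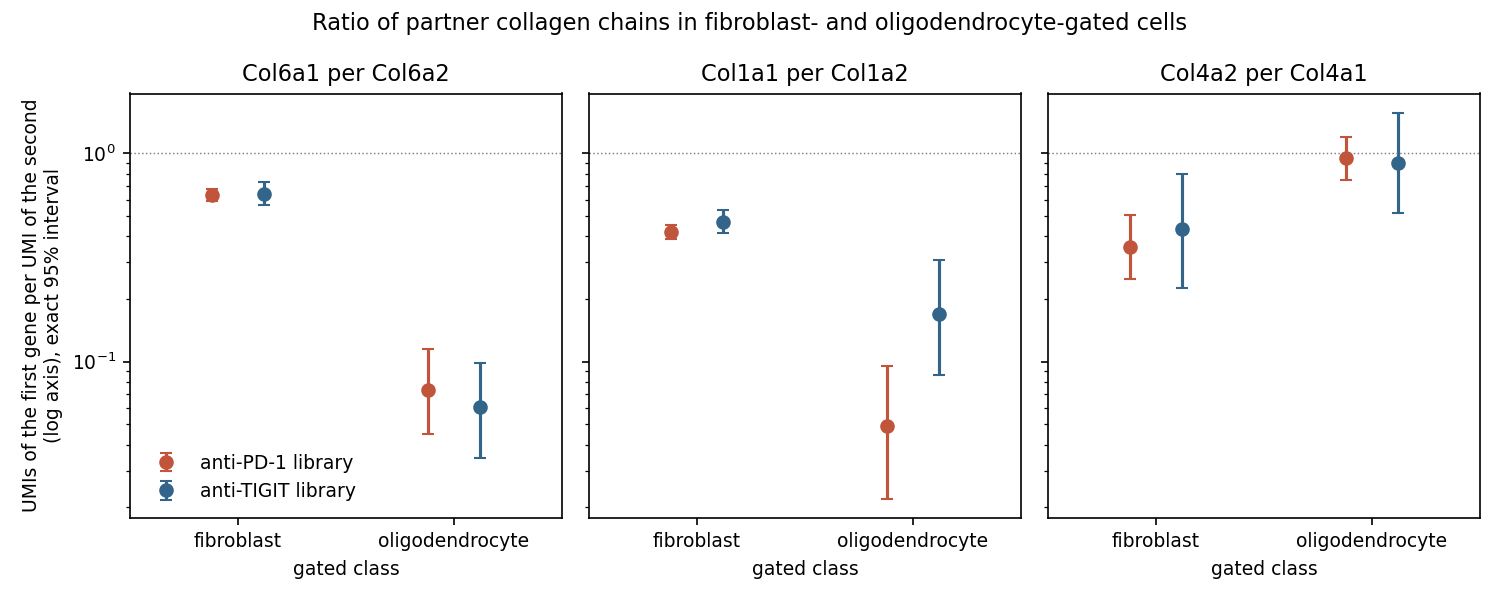
UMIs of one chain per UMI of its partner (log axis), with exact 95% intervals, in fibroblast- and oligodendrocyte-gated cells of each library, for Col6a1 per Col6a2, Col1a1 per Col1a2 and Col4a2 per Col4a1. Oligodendrocytes lie below fibroblasts in the left and middle panels (0.0734 and 0.0603 against 0.628 and 0.641 for type VI) and above them in the right panel.

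Microglia were the highest class for Col27a1 and Col15a1 in both libraries. Col27a1 had 419 UMIs (42.9 CPM) in 312 of 1290 microglia and 160 UMIs (87.4 CPM) in 120 of 442, a log2 ratio of -1.03 (-1.29 to -0.75). Col15a1, a multiplexin of the outer basement membrane zone, had 119 and 31 UMIs (12.2 and 16.9 CPM), a log2 ratio of -0.47 (-1.05 to 0.15). Both were lower in the anti-PD-1 library by the point value, the second within counting error, and on log2(CPM + 5) 0 of 3 genes tested passed 2-fold, against 1.46% higher and 1.94% lower of all genes, whose median was -0.18. Fibroblasts had 3.11 and 10.3 CPM of Col27a1 and 2.26 and 8.59 CPM of Col15a1, from at most 12 UMIs each. The gene body of Col27a1 also holds Mir455.

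The remaining immune classes had few collagen UMIs. Col27a1 led border macrophages of the anti-PD-1 library with 9 UMIs (11.7 CPM) and dendritic cells of both libraries with 17 and 13 UMIs (5.81 and 8.96 CPM). Col14a1 led border macrophages of the anti-TIGIT library with 27 UMIs (14.7 CPM), against 6 UMIs (7.77 CPM) in the anti-PD-1 library. Col24a1, a fibrillar chain of developing bone, led T and NK cells with 33 UMIs in 17 cells and 9 UMIs (2.27 and 1.77 CPM). Col20a1 led plasma cells with 11 and 4 UMIs, and no collagen gene exceeded 3 UMIs in B cells. In T and NK cells of the anti-PD-1 library Col25a1 had 27 UMIs, of which 23 were in 1 cell.

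The remaining chains were rare. Col7a1, which anchors skin basement membrane to the dermis, had 13 and 4 UMIs in all gated cells and none in fibroblasts. Col26a1 had 23 and 14 UMIs in fibroblasts (6.50 and 12.0 CPM), Col28a1 had 6 and 3 UMIs in all gated cells, and Col6a4 had no UMI in the anti-TIGIT library. Col19a1 and Col22a1 had at most 18 UMIs in the gated cells of either library.

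Genes that build, crosslink, bind and cut collagen were described from 5 lists, each in fibroblasts, where 194 of 12642 genes with at least 10 UMIs (1.53%) lay 2-fold or more higher under anti-PD-1 and 133 (1.05%) lower. Of 19 measured genes for modification and folding in the endoplasmic reticulum, 0 passed 2-fold, with a median log2 ratio of 0.03 against -0.04 over all genes. Serpinh1, the collagen chaperone HSP47, had 662 and 583 CPM in fibroblasts and at most 12.1 CPM in the other classes. Ppib, a proline isomerase, had 673 and 658 CPM, and P4hb, a subunit of prolyl hydroxylase, had 283 and 289 CPM. Fkbp10 and Plod2, which act in the lysine crosslinking route, had 33.9 and 57.5 CPM and 22.6 and 34.4 CPM. Of 9 genes for trimming and crosslinking, 0 passed, with a median of -0.15. Pcolce, an enhancer of procollagen trimming, had 467 and 405 CPM, and the propeptide protease Adamts2 had 88.8 and 98.8 CPM. Lox, the lysyl oxidase that crosslinks fibrils, had 54.0 and 91.0 CPM, and its relatives Loxl1 and Loxl2 had 54.8 and 72.1 CPM and 16.1 and 25.8 CPM.

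Among partners, receptors and proteases of collagen 1 gene passed 2-fold. Of 12 fibril partners 0 passed, with a median of -0.27. The matricellular protein Sparc had 898 and 917 CPM, Dcn 806 and 1188 CPM, and the proteoglycan Bgn 574 and 526 CPM. Ogn, another small leucine-rich proteoglycan, had 389 and 699 CPM, a log2 ratio of -0.84 (-0.97 to -0.72), and Lum had 112 and 189 CPM. Dcn and Lum also served to gate fibroblasts. The tenascin Tnxb had 24.6 and 12.9 CPM. Of 7 receptors 0 passed, with a median of 0.17. Mrc2, an uptake receptor for collagen, had 268 and 238 CPM, the integrin subunit Itgb1 243 and 190 CPM, and the collagen-binding kinase Ddr2 148 and 142 CPM. Itga10 had 23.5 and 12.9 CPM and Ddr1 had 39.0 and 54.1 CPM. Of 7 genes for breakdown and its inhibitors, 1 was higher and 0 lower, with a median of -0.11. The inhibitors Timp2, Timp3 and Timp1 had 492 and 531, 159 and 192, and 141 and 112 CPM, and the gelatinase Mmp2 had 31.1 and 39.5 CPM. The gene past 2-fold was the collagenase Mmp13, with 42 and 3 UMIs, which is named because its value was seen. Over the 27 collagen genes with at least 10 UMIs, 2 were higher, 0 were lower and the median was 0.02. Outside fibroblasts, Pcolce2 was highest in oligodendrocytes, at 98.2 and 125 CPM against at most 3 UMIs in fibroblasts.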

How the data were processed

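The deposited files hold counts of UMIs per gene and cell barcode, made by the authors with Cell Ranger 8.0.0 (anti-PD-1) and 8.0.1 (anti-TIGIT) per the file headers, from 10x 5′ libraries per the labels' protocols. Build mm10, Seurat 5.0.3 and R 4.1.1 come from the submitters' processing notes; use of introns and strand is not given in the sources used here. From the counts, cells below 200 genes or above 10% mitochondrial UMIs were dropped, and Scrublet doublets (576 and 155) were removed. A cell joined the class with most detected markers, given at least 3 and 2 more than the next; for fibroblasts 71 and 37 cells had exactly 3. UMIs were summed per class and library. CPM carry exact Poisson intervals, ratios exact conditional binomial intervals and shares exact Clopper-Pearson intervals, at 95%; a class at 0 is bounded by 3 UMIs. Full values are given for genes at 2% or more of fibroblast collagen, for the leading gene of each class, for genes highest outside fibroblasts and, of each pathway list, for the 3 highest and the 2 that differed most. The members and lists were chosen with earlier results of these data known. The ratio script was tested on simulated data. Python 3.11.15, numpy 2.4.6, scipy 1.17.1, pandas 2.3.3 and scanpy 1.11.5 were used. Alternatives changed gates, clusters, filters, depth, scaling, minimums and cell sex.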

Additional observations from a re-analysis of the deposited data

Results flagged for a closer look

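Col11a1 differed between the libraries in opposite directions in different classes. Its anti-PD-1 over anti-TIGIT log2 ratio was -0.72 (-1.26 to -0.16) in fibroblasts, 1.38 (0.70 to 2.15) in OPCs and 2.22 (0.08 to 5.41) in oligodendrocytes, where it rests on 13 against 2 UMIs. The difference between these classes was not tested. Col6a2 was likewise higher in fibroblasts, at 0.27 (0.14 to 0.40), and lower in oligodendrocytes, at -0.46 (-0.70 to -0.22), of the anti-PD-1 library, again with no test of the difference.

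Collagen UMIs also appeared in classes too small to be compared. In astrocyte-gated cells Col25a1 was at 550 CPM (448 to 669) over the 30 anti-PD-1 cells and 3302 CPM (2899 to 3747) over the 16 anti-TIGIT cells. Col23a1 was at 343 CPM (264 to 439) and 1192 CPM (955 to 1470) in the same cells. Of the 4 and 12 astrocyte-gated cells with at least 5 Col25a1 UMIs, 4 and 11 also had Col23a1. Col6a5 was at 76.3 CPM (41.7 to 128) in astrocyte-gated cells of the anti-PD-1 library. In the 14 endothelial-gated cells of the anti-PD-1 library Col4a1 was at 526 CPM (326 to 804) and Col4a2 at 276 CPM (138 to 493).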

How the results depend on the processing

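No paired analysis was possible because each group is 1 library. A value is called moved where it left the 95% counting interval of the reported one or, for a count of genes, differed from it by over 1.5 times. Of the summary values, 65 stayed and 30 moved; for single genes and shares 249 stayed, 95 moved and 1 changed sign, Col1a1, which was at 0.024 in cells with Y-linked transcripts. The count of genes highest in fibroblasts was 13 (anti-PD-1) and 8 (anti-TIGIT) after thinning to 1000 UMIs, which leaves fewer genes above the minimum, and in the anti-TIGIT library 11 in Y cells and 8 at a minimum of 100 UMIs. The count past 2-fold higher between libraries in fibroblasts was 1 by clusters, 1 in Xist cells and 1 without Pi16-set cells, an alternative chosen after seeing the data; the count lower was 1 at 500 genes and 5% mitochondrial UMIs and 1 with 1 CPM added. The fibroblast share of collagen UMIs in the anti-PD-1 library was 62.3% by clusters, 62.0% without doublet removal, 61.8% at 500 genes and 5% mitochondrial UMIs, 73.9% in Xist cells and 58.7% in Y cells. In the anti-TIGIT library it was 48.7%, 51.4% and 49.8% under the first 3 of these, 60.3% thinned and 44.8% in Y cells. The log2 ratio of fibroblasts over other cells was 4.95 by clusters, 4.78 without doublet removal and 4.80 in Xist cells of the anti-PD-1 library. In the anti-TIGIT library it was 4.93 at 500 genes and 5% mitochondrial UMIs, 4.94 thinned, 4.14 in Xist cells and 4.99 in Y cells. The fibroblast sum ratio between libraries was 0.15 by clusters, 0.050 in Xist cells, 0.35 in Y cells and 0.051 without Pi16-set cells; the causes were not tested. Depth limits genes under 20 UMIs and the 110 OPCs of the anti-TIGIT library.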
